A study of Mus musculus with 6 samples.

Results

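Receptors of the Siglec, CD300, TREM, Fc-gamma and paired-receptor families of myeloid cells were compared between haematopoietic progenitors with and without forced expression of EVI1, the DNA-binding protein of the Mecom gene that is active in a subset of myeloid leukaemias. Genes were selected on their annotated symbol: those beginning with Siglec (except Siglecf), Cd300, Trem (except Treml1), Fcgr, Lilr, Pilr, Pira, Pirb or Mrgpr, with Cd33, Cd22, Lair1, Ceacam1, Sirpa, Cd200r1, Cd200r4, Gp49a, the adaptors Fcer1g, Tyrobp and Hcst and the signalling enzymes Ptpn6 and Syk. Each gene was represented by 1 probe set, the brightest on average over the 6 arrays among those annotated to it alone, and 43 genes of 18192 measured met the rule. This family of genes was chosen with its difference between the groups already known, so the differences and counts below describe it and test nothing about it. Lilr, Pira and Gp49a symbols were held only by probe sets annotated to several genes, 7 such probe sets in all for the selected symbols, and no value is given for them.

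The cells were marrow progenitors depleted of lineage-positive cells (Lin-) from C57BL/6J mice whose Rosa26 locus carries rtTA, the doxycycline-dependent transactivator, and both groups share this background. EGFP-positive cells (3 arrays) carried pRRL.TET.EVI1.IRES.EGFP, a lentiviral vector that makes EVI1 and EGFP from 1 doxycycline-driven transcript, and were sorted for high EGFP 20 hours after doxycycline (1 µg/ml). EGFP-negative cells (3 arrays) are labelled untransduced, whereas the design text has negative or low EGFP cells sorted from the transduced culture, and even the EGFP-positive description field says untransduced, so the groups here follow the sample titles. The medium held interleukin-3 (20 ng/ml) with stem cell factor, interleukin-11 and Flt3 ligand (50 ng/ml each), no source used here states the age of the mice, and no empty-vector group was analysed here. The labels do not say whether replicates are separate cultures or animals, and p-values therefore reflect the spread among these samples alone, possibly a technical one.

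These receptors come in pairs with opposite output. Inhibitory receptors carry immunoreceptor tyrosine-based inhibitory motifs (ITIMs) in their cytoplasmic tails, which recruit phosphatases such as SHP-1, the product of Ptpn6. Activating receptors have short tails and signal through adaptors with activating motifs (ITAMs), namely DAP12 (Tyrobp) and the Fc receptor gamma chain (Fcer1g), which engage the kinase SYK, or through DAP10 (Hcst), which engages phosphoinositide 3-kinase. Siglecs bind sialic acid on glycans, Fc-gamma receptors bind the constant part of IgG, and both kinds of receptor set the threshold at which neutrophils, monocytes, macrophages and mast cells respond. The Mrgpr genes caught by the symbol rule are a separate family of G protein-coupled receptors, known mostly from sensory neurons and mast cells.

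Values are log2 expression after RMA, a normalization that gives every array nearly the same distribution, and a difference is EGFP-positive minus EGFP-negative on the log2 scale. The highest reading of 27 bacterial control probe sets, 3.61, marks background: a dim array under it was set to it for a fold, which is then given as a lower bound, and no fold is given where both group means lie under it. A gene is said to rise or fall where limma's Benjamini-Hochberg adjusted p over all 18192 genes was under 0.05. Array medians ran from 5.11 to 5.14, and Pearson's r across probe sets was 0.995 within the EGFP-negative group, 0.989 within the EGFP-positive group and 0.968 to 0.969 across groups. Mecom read 8.26, 8.17 and 8.35 on the EGFP-negative arrays and 8.20, 7.89 and 7.82 on the EGFP-positive arrays (difference -0.29, adjusted p = 0.13), and since the sources used here do not give the vector's EVI1 sequence, this probe set does not check the labels. The progenitor genes Kit and Cd34 read 7.58 and 10.48 on average without EGFP and 6.60 and 7.74 with EGFP, and transcripts of maturing granulocytes such as S100a8 (13.65 and 13.36) were present in both groups of these lineage-depleted cultures. The excess of 3' over 5' signal, a sign of RNA quality or amplification, differed between groups, at 0.80 ± 0.05 (SD, n = 3) against 1.00 ± 0.03 for Actb and 0.82 ± 0.02 against 1.06 ± 0.04 for Gapdh, and its part in the results was not tested.

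Across the family, 21 of 43 genes fell and 5 rose in EGFP-positive cells, and 17 did not pass the threshold. Over all genes, 33.2% passed, 17.2% as lower and 16.0% as higher. At least 2-fold falls numbered 15, where 6.24% of all genes fell that far, and the 1 rise of that size was Cd300lg (5.95% of all genes). In 24 genes every EGFP-positive array lay below every EGFP-negative array, as in 24.4% of all genes, and in 6 genes every EGFP-positive array lay above, as in 23.8% of all genes. The median difference was -0.35, against 0.02 for all genes, and without the 8 Mrgpr genes, of which 6 read under the bacterial ceiling on all arrays, 20 of 35 fell and the median was -0.67. Because the genes were chosen on this contrast, nothing is read from these shares. In bulk samples fewer cells of a type and less RNA per cell cannot be told apart, and this holds for every difference below. The spread between arrays was wider in the EGFP-positive group, with a median SD over the family of 0.23 against 0.10. The plot of expression on each array shows these values for every gene.

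**Figure D1:**
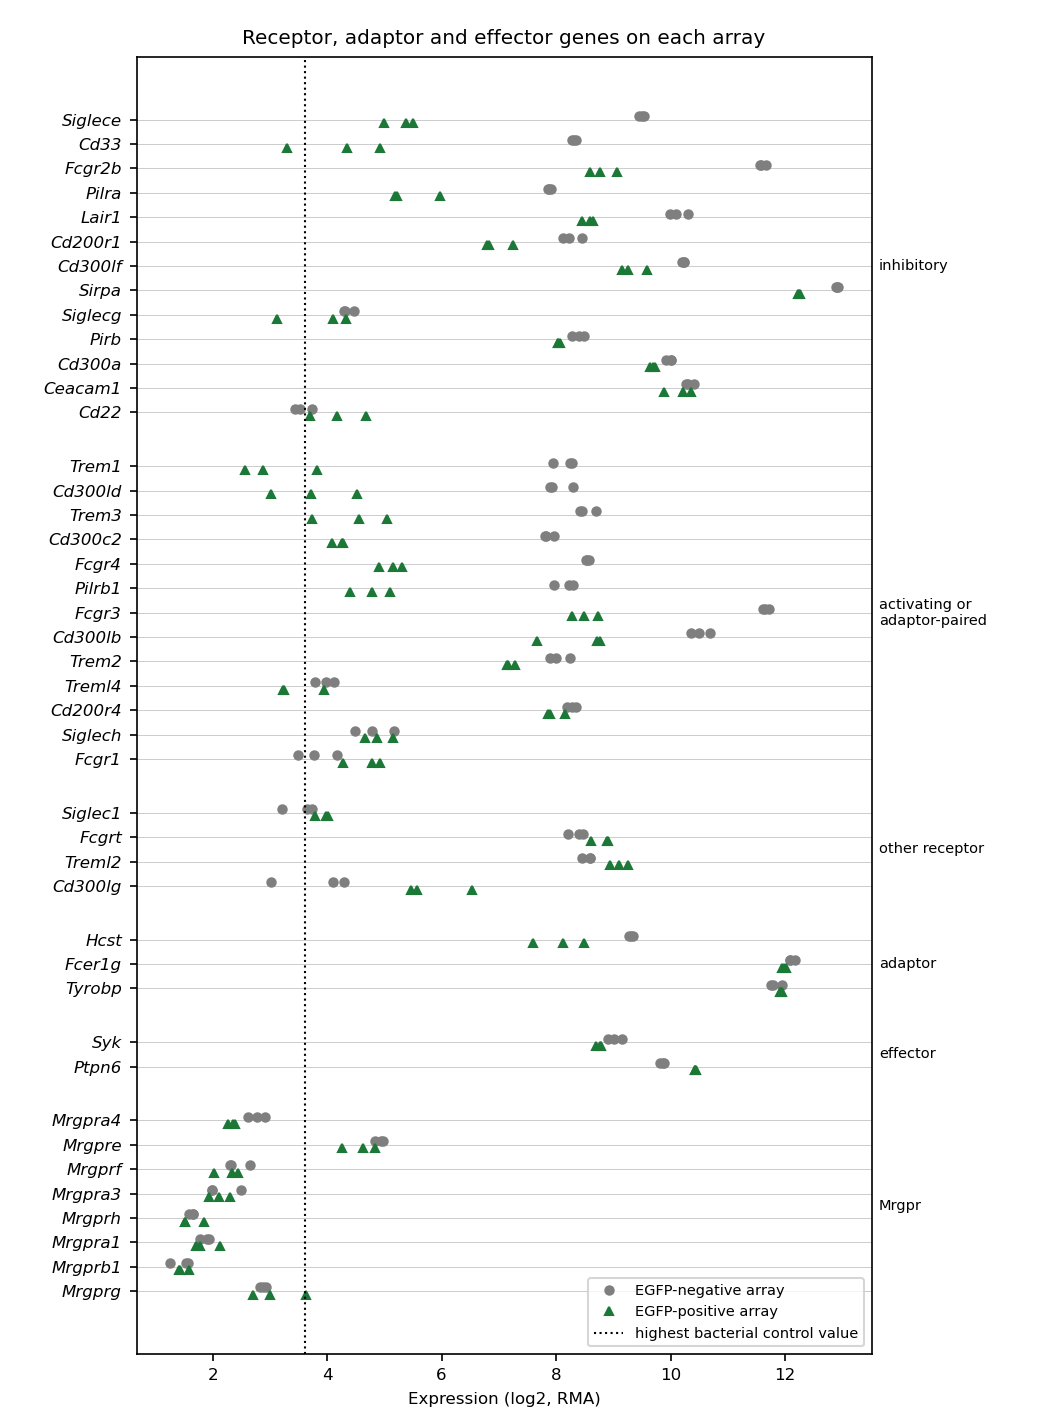
Expression (log2, RMA; horizontal axis) of the 43 genes on each array, grouped by role, with grey circles for the 3 EGFP-negative and green triangles for the 3 EGFP-positive arrays, and the dotted line at the highest bacterial control value (3.61). Most inhibitory and activating receptors lie lower in EGFP-positive arrays, the adaptors Fcer1g and Tyrobp lie close together in both groups, and 6 of the 8 Mrgpr genes stay left of the line.

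Roles were assigned with earlier results of these data known, so counts by role are descriptions only. Of 13 activating or adaptor-paired receptors, 9 fell, 1 rose (Fcgr1) and 3 did not pass, with a median of -3.16. Over all genes, 17.2% were lower and 16.0% higher. The deepest fall of the family was Trem1, a DAP12-coupled receptor that amplifies inflammatory responses of neutrophils and monocytes. Trem1 read 8.25, 7.94 and 8.28 on the EGFP-negative arrays and 3.82, 2.88 and 2.56 on the EGFP-positive arrays, for a difference of -5.07 (SE 0.32, limma adjusted p = 0.00012), at least 22.3-fold lower. The groups lay far apart, and 2 of the EGFP-positive arrays were under the background ceiling. Its second probe set gave -3.66. Trem3, a neighbouring mouse gene that also signals through DAP12, read 8.69, 8.41 and 8.45 against 5.05, 3.73 and 4.55, 16.9-fold lower (-4.08, SE 0.32). No EGFP-positive array came within reach of the EGFP-negative range, although those arrays differed among themselves by more than 1 unit. Trem2, a DAP12-coupled lipid receptor of macrophages, fell by less (-0.86), with means going from 8.05 ± 0.18 to 7.19 ± 0.07 (SD, n = 3). The second probe set of Trem2, dim at means of 3.86 and 3.57, was not called (-0.28, limma adjusted p = 0.18 over all probe sets).

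Among the CD300 genes, those with activating or adaptor-paired products had the larger falls, although differences between genes were not tested. Cd300ld, whose product associates with the Fc receptor gamma chain, read 8.30, 7.93 and 7.89 on the EGFP-negative arrays and 3.02, 3.71 and 4.53 on the EGFP-positive arrays, at least 17-fold lower (-4.29, SE 0.37), with 1 array under the ceiling. Cd300c2 gave 7.83, 7.81 and 7.96 against 4.28, 4.25 and 4.08, 12.7-fold lower (-3.66, SE 0.10). The EGFP-positive arrays of Cd300c2 were closely grouped, whereas those of Cd300ld spanned a wide range, and neither gene's groups overlapped. Cd300lb, which couples to DAP12, read 10.36, 10.49 and 10.69 against 8.76, 7.67 and 8.72, 4.39-fold lower (-2.13, SE 0.30). Replicate 2 was the lowest EGFP-positive array for Cd300lb, and all lay below the EGFP-negative ones.

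Activating Fc-gamma receptors moved in both directions. Fcgr3, the low-affinity IgG receptor of myeloid cells, read 11.73, 11.65 and 11.61 on the EGFP-negative arrays and 8.28, 8.49 and 8.73 on the EGFP-positive arrays, 8.95-fold lower (-3.16, SE 0.13, limma adjusted p = 3.6e-05). Fcgr4, a mouse receptor with preference for certain IgG subclasses, gave 8.52, 8.58 and 8.55 against 4.90, 5.30 and 5.16, 10.8-fold lower (-3.43, SE 0.12). For both genes the groups were separated by more than 2 units with little spread within each. Fcgr1, the high-affinity IgG receptor, instead read 4.16, 3.77 and 3.50 against 4.78, 4.28 and 4.92, at least 1.76-fold higher (0.85, SE 0.23, limma adjusted p = 0.033). Its lowest EGFP-positive array exceeded its highest EGFP-negative array by little, all readings were near background, and the call was lost without any 1 of 4 arrays (EGFP-negative replicate 2 or 3, EGFP-positive replicate 1 or 3; adjusted p from 0.087 to 0.099) and when its probe sets were averaged (0.52, adjusted p = 0.068).

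Pilrb1, the DAP12-coupled partner of the inhibitory Pilra, read 8.30, 7.96 and 8.22 on the EGFP-negative arrays and 5.10, 4.40 and 4.78 on the EGFP-positive arrays, 10.6-fold lower (-3.40, SE 0.19). Its groups lay well apart. The DAP12-coupled Cd200r4 (-0.30, adjusted p = 0.081), Treml4 (-0.49, adjusted p = 0.14) and Siglech (0.08, adjusted p = 0.81), a receptor of plasmacytoid dendritic cells, did not pass. The arrays of Treml4 and Siglech overlapped between groups and those of Cd200r4 did not.

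Of 13 inhibitory receptors, 10 fell, 0 rose and 3 did not pass, with a median of -0.90. The shares over all genes were 17.2% lower and 16.0% higher. Siglece, a myeloid Siglec with ITIMs, read 9.51, 9.45 and 9.54 on the EGFP-negative arrays and 5.50, 5.37 and 4.99 on the EGFP-positive arrays, 18.5-fold lower (-4.21, SE 0.14, limma adjusted p = 2.3e-05). Cd33, the neighbouring Siglec gene, gave 8.34, 8.32 and 8.27 against 4.92, 4.34 and 3.30, at least 16.2-fold lower (-4.12, SE 0.39). Cd33 is placed here by its human role, an inhibitory myeloid receptor, and the mouse protein differs in its tail. Both genes were tight in the EGFP-negative group, and the EGFP-positive arrays of Cd33 spread down to the ceiling, with 1 under it.

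Fcgr2b, the only inhibitory member of the Fc-gamma family, read 11.56, 11.67 and 11.58 on the EGFP-negative arrays and 8.59, 8.76 and 9.06 on the EGFP-positive arrays, 6.97-fold lower (-2.80, SE 0.13, limma adjusted p = 5.0e-05). Inhibitory Fcgr2b and activating Fcgr3 and Fcgr4 were thus all lower in the same arrays. The probe sets standing for Fcgr2b and Trem2 belong to a class that may cross-hybridise with related transcripts. Pilra, an ITIM receptor, gave 7.85, 7.91 and 7.88 against 5.22, 5.97 and 5.18, 5.37-fold lower (-2.43, SE 0.22). EGFP-positive replicate 2 was the highest of its group for Pilra but still far below the EGFP-negative arrays.

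Sirpa, the receptor for the CD47 signal that restrains phagocytosis, read 12.93, 12.90 and 12.91 on the EGFP-negative arrays and 12.25, 12.22 and 12.26 on the EGFP-positive arrays, 1.59-fold lower (-0.67, SE 0.07, limma adjusted p = 0.0009). The fall was modest in size and the arrays of each group were nearly equal. Smaller or intermediate falls were also measured for Lair1, a collagen receptor (-1.57), Cd200r1, the receptor of CD200 (-1.30), Cd300lf (-0.90), Pirb, which binds class I histocompatibility molecules (-0.35), and Cd300a (-0.30). The calls of Pirb and Cd300a were near the threshold. Pirb's was lost without EGFP-negative replicate 1 or 3 or EGFP-positive replicate 1 or 2 (limma adjusted p from 0.056 to 0.082). That of Cd300a was lost without any 1 array but EGFP-positive replicate 2 (0.055 to 0.099). The differences changed little in those fits, at -0.30 to -0.35 for Pirb and -0.28 to -0.33 for Cd300a. Cd22 (0.62) and Siglecg (-0.51), inhibitory receptors of B cells, and the adhesion receptor Ceacam1 (-0.18) did not pass, and their groups overlapped.

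**Figure D2:**
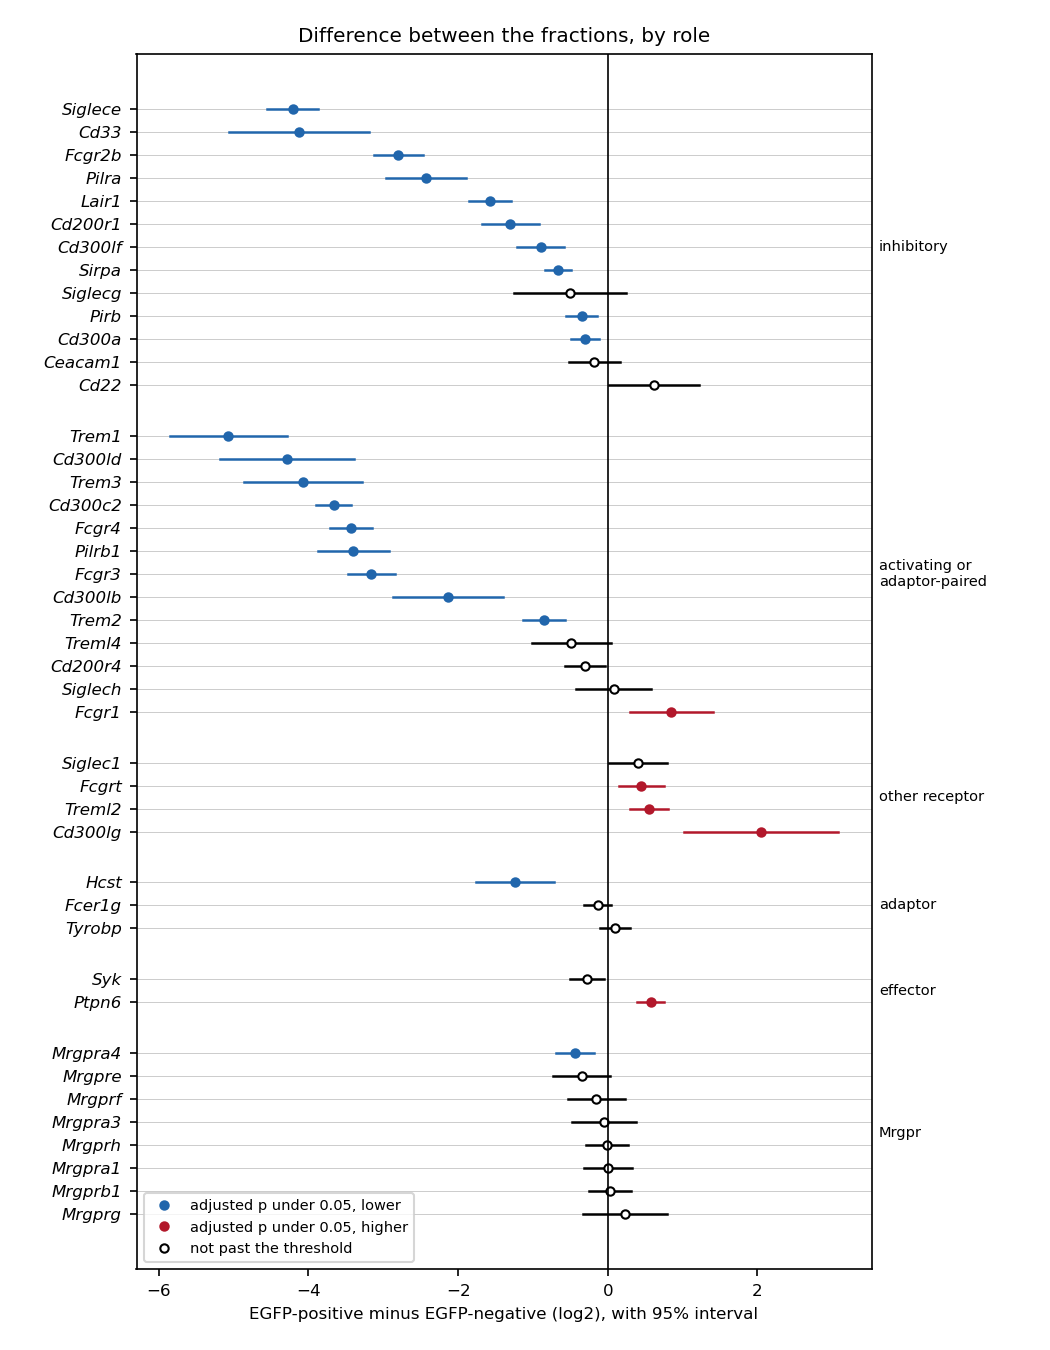
Difference between the groups (EGFP-positive minus EGFP-negative, log2; horizontal axis) with its 95% interval from limma for each of the 43 genes, grouped by role, with blue and red points for calls in either direction and open points for genes that did not pass. Deep falls lie among both the activating or adaptor-paired (Trem1 at -5.07) and the inhibitory receptors (Siglece at -4.21), and the rises lie mostly among the other receptors, led by Cd300lg at 2.05.

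Of the 3 adaptors, Hcst fell and Fcer1g and Tyrobp did not pass, where 17.2% of all genes were lower. Fcer1g, the gamma chain that Fcgr1, Fcgr3 and Fcgr4 require at the surface, read 12.10, 12.09 and 12.18 on the EGFP-negative arrays and 11.98, 11.96 and 12.02 on the EGFP-positive arrays (-0.14, 95% interval -0.32 to 0.05, limma adjusted p = 0.23). Tyrobp, which encodes DAP12, gave 11.79, 11.76 and 11.95 against 11.91, 11.95 and 11.93 (0.10, 95% interval -0.11 to 0.30, adjusted p = 0.45). All 3 EGFP-positive arrays of Fcer1g were slightly below the EGFP-negative ones, and those of Tyrobp overlapped the EGFP-negative range. With eBayes trend and robust options Fcer1g passed as lower (adjusted p = 0.020). Hcst, which encodes DAP10 and lies next to Tyrobp, read 9.31, 9.27 and 9.35 against 7.60, 8.49 and 8.12, 2.36-fold lower (-1.24, SE 0.22). No array overlapped between groups for Hcst, with replicate 1 the lowest EGFP-positive array.

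Of the 2 effectors, Ptpn6 rose and Syk did not pass, where 16.0% of all genes were higher. Ptpn6, which encodes the phosphatase SHP-1 that ITIMs recruit, read 9.81, 9.87 and 9.89 on the EGFP-negative arrays and 10.42, 10.43 and 10.45 on the EGFP-positive arrays, 1.49-fold higher (0.58, SE 0.07, limma adjusted p = 0.0018). Syk, the kinase that ITAMs recruit, gave 9.01, 9.15 and 8.91 against 8.76, 8.69 and 8.78 (-0.28, SE 0.09, adjusted p = 0.062). Every EGFP-positive array lay above the EGFP-negative arrays for Ptpn6 and below them for Syk. Syk passed as lower when only genes above the bacterial ceiling were tested (adjusted p = 0.037) and with eBayes trend and robust options (0.038).

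Of 4 receptors outside the paired scheme, 3 rose and 0 fell, where 16.0% of all genes were higher and 17.2% lower. Cd300lg, a CD300 gene known from endothelium, read 3.01, 4.29 and 4.11 on the EGFP-negative arrays and 6.53, 5.56 and 5.46 on the EGFP-positive arrays, at least 3.61-fold higher (2.05, SE 0.42, limma adjusted p = 0.012). One EGFP-negative array was under the ceiling, and no arrays overlapped. Treml2, a TREM-like gene, gave 8.59, 8.46 and 8.59 against 9.10, 8.95 and 9.26, 1.47-fold higher (0.55, SE 0.11). Fcgrt, the neonatal Fc receptor that recycles IgG and albumin and is no Fc-gamma receptor in function, read 8.20, 8.41 and 8.46 against 8.89, 8.91 and 8.61, 1.36-fold higher (0.45, SE 0.12). Neither gene's groups overlapped. The call of Fcgrt was lost without any 1 of 5 arrays (adjusted p from 0.060 to 0.11; all but EGFP-positive replicate 3), and that of Treml2 when its 4 probe sets were averaged (difference 0.15, adjusted p = 0.25). Siglec1, a sialic acid receptor of macrophages without ITIMs, did not pass (0.40, adjusted p = 0.11).

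Among the Mrgpr genes, Mrgpra4 passed as lower (-0.43, adjusted p = 0.021), but its means of 2.77 and 2.34 lay under the bacterial ceiling in both groups, and the call was lost without EGFP-negative replicate 2 or 3 or EGFP-positive replicate 2 (adjusted p from 0.059 to 0.071). Mrgpre was the only gene of this group above the ceiling on all arrays, at 4.94, 4.84 and 4.97 against 4.62, 4.26 and 4.84, and did not pass (-0.35, adjusted p = 0.15). Of the remaining Mrgpr genes none passed, and their differences ran from -0.15 for Mrgprf to 0.23 for Mrgprg.

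Several probe sets measured 14 of the 43 genes, and none of these genes had probe sets called in opposite directions (73 single-gene probe sets in all, fitted with adjustment over all probe sets). Fcgrt, with a single probe set, was not called in this fit (limma adjusted p = 0.051). Fcgr2b fell at 4 of 5 probe sets, with differences from -2.78 to -3.14, and the fifth read under the ceiling in both groups. Lair1 and Sirpa fell at 3 of 3 each, and the brightest probe set of Sirpa gave the smallest fall, against -1.25 and -1.32 at the others. Trem1 and Cd200r1 fell at 2 of 2, and Ptpn6 rose at 2 of 2. Ceacam1 was not called at its brightest probe set and fell at 3 of 8, all with negative differences (-0.18 to -0.98). Syk passed at 0 of 4 and Treml2 rose at 1 of 4, with differences from -0.19 to 0.55. Fcgr1 was not called at its second probe set (0.19, adjusted p = 0.63), where both means lay under the ceiling. Cd300a was not called in this fit at its brightest probe set (-0.30, adjusted p = 0.054) and fell at the other (-0.56, 0.020). Trem2 fell at its brightest probe set only, and Cd22 and Siglec1 were called at none. The plot of genes measured by more than 1 probe set shows each of these differences.

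**Figure D3:**
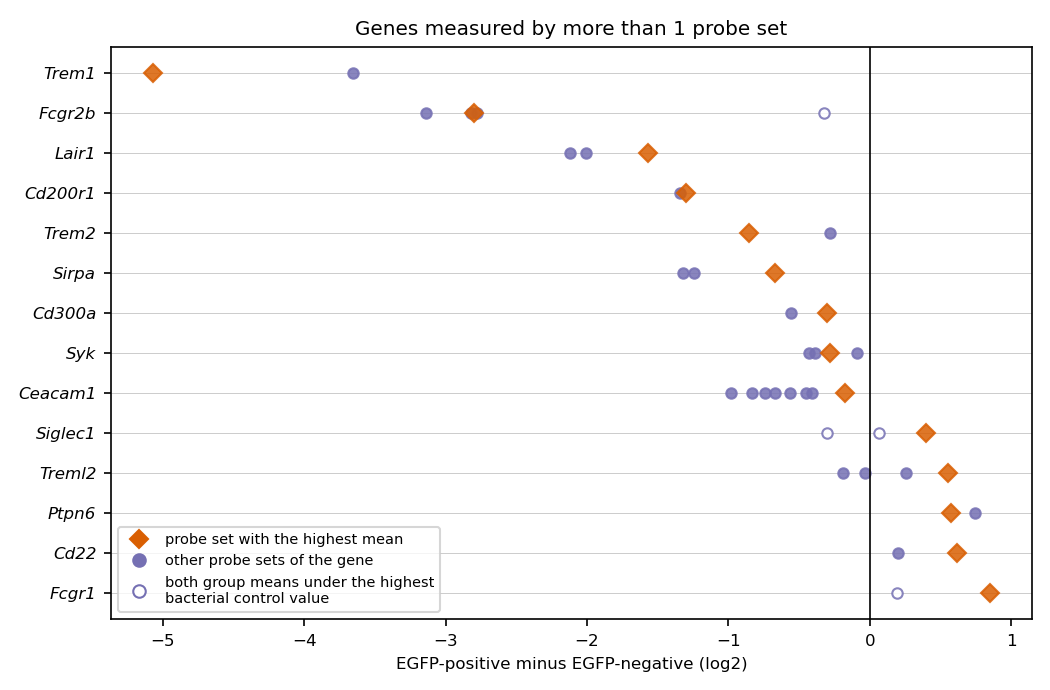
Difference between the groups (EGFP-positive minus EGFP-negative, log2; horizontal axis) at every single-gene probe set of the 14 genes that have more than 1, with diamonds for the brightest probe set, filled circles for the others and open circles where both group means lie under the highest bacterial control value. The probe sets of Trem1, Lair1, Cd200r1 and Sirpa all lie left of 0, while those of Treml2 lie on both sides.

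Many of these genes lie side by side, by gene order in RefSeq's mouse assembly GRCm38.p6 (members with at most 6 gene steps between them). Fcgr2b, Fcgr4 and Fcgr3 form 1 such run and all fell. In the run of Cd300a, Cd300lb, Cd300ld and Cd300c2 all fell, from -0.30 to -4.29. Neighbours did not always share a direction: in the run of Trem1, Trem3, Treml4, Treml2 and Trem2, Trem1, Trem3 and Trem2 fell, Treml4 did not pass and Treml2 rose, and Tyrobp did not pass beside Hcst, which fell. Cd33 with Siglece, Pilra with Pilrb1 and Pirb with Lair1 fell together.

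Promoter sequence from RefSeq (GRCm38.p6; 250 bases before to 50 after the gene start, 300 in all) was available for 34 of the genes, and the 4 with the largest called differences are shown because they fell furthest. Capitals mark matches, on either strand, to GAGGAA (the core of sites of PU.1, an ETS factor of myeloid cells), TTGCNNAA (C/EBP), TGTGGT (RUNX), AGATAA (the site of GATA factors), GACAAGATA (first zinc finger domain of EVI1) or GAAGATGA (its second domain). GACAAGATA contains AGATAA when an A follows it, and GAAGATGA can overlap the end of GAGGAA.
Trem1, chr17:48232489-48232788, plus strand: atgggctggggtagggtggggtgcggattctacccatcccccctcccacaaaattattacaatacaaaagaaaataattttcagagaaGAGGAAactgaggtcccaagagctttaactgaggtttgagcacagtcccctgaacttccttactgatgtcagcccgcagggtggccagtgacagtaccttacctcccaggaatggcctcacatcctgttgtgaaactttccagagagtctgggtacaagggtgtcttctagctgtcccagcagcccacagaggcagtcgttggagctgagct
Cd300ld, chr11:114989837-114990136, minus strand: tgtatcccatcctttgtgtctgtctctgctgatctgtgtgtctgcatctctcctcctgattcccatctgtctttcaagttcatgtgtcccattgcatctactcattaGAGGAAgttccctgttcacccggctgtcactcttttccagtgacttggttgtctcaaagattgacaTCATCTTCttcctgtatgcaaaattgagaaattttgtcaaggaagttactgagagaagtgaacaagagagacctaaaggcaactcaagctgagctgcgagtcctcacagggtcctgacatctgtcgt
Siglece, chr7:43660112-43660411, minus strand: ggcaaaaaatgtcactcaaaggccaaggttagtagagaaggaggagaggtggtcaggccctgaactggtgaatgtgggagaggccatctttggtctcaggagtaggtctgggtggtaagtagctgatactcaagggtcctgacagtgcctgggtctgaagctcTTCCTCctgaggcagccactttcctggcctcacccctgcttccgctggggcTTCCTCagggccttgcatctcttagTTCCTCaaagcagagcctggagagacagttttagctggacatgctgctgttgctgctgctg
Cd33, chr7:43533122-43533421, minus strand: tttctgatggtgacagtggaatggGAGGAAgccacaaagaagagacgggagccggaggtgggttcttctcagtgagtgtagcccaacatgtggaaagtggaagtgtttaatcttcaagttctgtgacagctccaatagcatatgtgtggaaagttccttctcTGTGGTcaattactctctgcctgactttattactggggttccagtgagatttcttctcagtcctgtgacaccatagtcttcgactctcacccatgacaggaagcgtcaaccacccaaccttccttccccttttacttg
Each is written 5′ to 3′ on the gene's strand. GAGGAA or its reverse complement was found in all 4 windows, on the reverse strand in Siglece, with a TGTGGT match in Cd33 and a GAAGATGA match on the reverse strand in Cd300ld.

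Over the family, GAGGAA was present in 20 of 34 genes with a promoter (58.8%), and, leaving out Mrgpr genes, in 13 of the 17 that fell (76.5%) and in 5 of the 8 that did not pass (62.5%). The motif was present in 31.3% of all 27025 genes with a promoter in the table. TTGCNNAA was found in 26.5% of the family and 12.2% of all genes, TGTGGT in 29.4% and 18.9%, and AGATAA in 14.7% and 12.7%. GAAGATGA was present in Cd300ld, Pilra and Pilrb1 (8.82%, against 1.68% of all genes), and GACAAGATA in none of the 34 (0.141% of all genes). Pilra and Pilrb1, like the other neighbours, are related genes and share sequence, so they are not independent. These are matches of letters in a window, not measured binding sites.

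Signalling genes downstream of the receptors, a list of 50 of which 46 were measured, were lower in 21 cases and higher in 7, with a median of -0.33 against 0.02 for all genes. Lower genes made up 45.7% of this list and 17.2% of all genes, of which 16.0% were higher. The falls with the smallest p were those of Sla, an adaptor that dampens receptor signalling (-1.92), Lcp2, the adaptor SLP-76 (-1.41), and Clnk, a relative of SLP-76 known from mast cells and other cytokine-stimulated blood cells (-2.82, from 8.38 ± 0.01 to 5.56 ± 0.39, SD, n = 3). The rises with the smallest p were Dok3 (0.79) and Dok1 (0.53), adaptors of inhibitory signalling, and the receptor phosphatase Ptprj (0.93). Ptpn11, which encodes SHP-2, another phosphatase that ITIMs recruit, fell (-0.55), whereas Ptpn6 rose.

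Genes of the ligands, 29 of 30 measured, were divided, with 11 lower and 9 higher (median -0.16). Lower genes made up 37.9% of this list and 17.2% of all genes, of which 16.0% were higher. The ligand genes include enzymes that add sialic acid, the sugar that Siglecs bind. St6gal1, which makes alpha-2,6-linked sialic acid, fell (-2.24, from 7.55 ± 0.10 to 5.31 ± 0.29, SD, n = 3), as did the alpha-2,3 enzymes St3gal3 (-0.81) and St3gal5 (-1.54). St3gal1 (-0.84), St3gal6 (-0.83), St8sia6 (-0.86), Nans (-0.63), Nanp (-0.44) and Cmah (-1.38) also fell. Other genes of sialic acid transfer and activation rose, namely St3gal4 (1.02), St3gal2 (0.66), St8sia4 (0.60), Cmas (0.66) and Slc35a1 (0.95). These lists depend on the choice of probe set. With all probe sets of a gene averaged, St6galnac2 also rose (1.48, limma adjusted p = 0.00087). St6galnac3 (-0.80, 0.0014) and St8sia1 (-0.50, 0.0075) then fell, and none of these passed at the brightest probe set. The calls of St3gal6, St8sia6, Nanp and Slc35a1 were lost when certain single arrays were left out. Cmah and St8sia6 each read under the ceiling on 3 arrays. The rises with the smallest p were Apoe, a ligand of TREM2 (3.21), Pglyrp1, a ligand of TREM1 (1.08), and the sialidase Neu3 (1.05). Cd47, the ligand of SIRPA (-0.38), and Cd200, the ligand of CD200R1 (-0.85), fell together with their receptors' transcripts. The call of Cd47 was lost with a replicate block (adjusted p = 0.054). The plot of receptors beside their signalling and ligand genes sets these lists against the range of all genes.

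**Figure D4:**
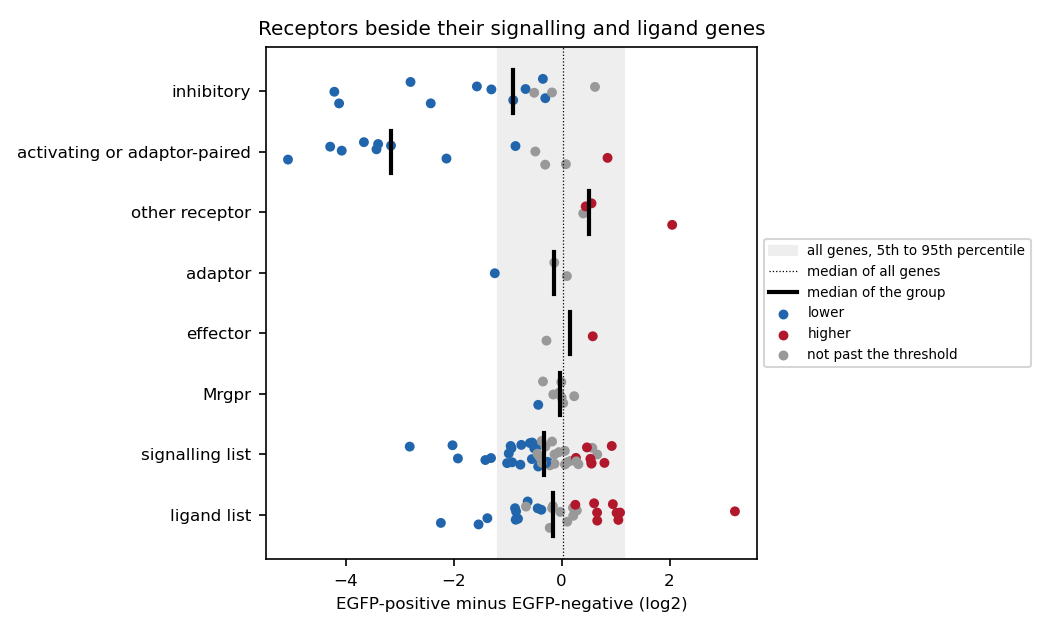
Difference between the groups (EGFP-positive minus EGFP-negative, log2; horizontal axis) for the genes of each receptor role and of the signalling and ligand lists, coloured by call, with black bars at medians and a grey band from the 5th to the 95th percentile of all genes (-1.19 to 1.17). The activating or adaptor-paired receptors have their median (-3.16) left of the band, and the medians of the signalling (-0.33) and ligand (-0.16) lists lie inside it.

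Markers of granulocytes and mast cells also fell, as the plot of lineage marker lists shows. Beside the counts of each list, 17.2% of all genes were lower and 16.0% higher. Neutrophil markers fell in 13 of 13 cases, and their summed level per array (log2 of the sum of linear values) went from 15.80 to 15.89 in EGFP-negative arrays down to 14.88 to 14.91 in EGFP-positive arrays. The same was seen for mast cell and basophil markers (8 of 9 fell; 14.71 to 14.74 against 13.35 to 13.45) and eosinophil markers (4 of 6 fell; 10.65 to 10.83 against 7.75 to 8.46, with Ccr3 under the ceiling on all arrays). The neutrophil sum is weighted to its brightest genes, S100a9 (14.21 and 13.82 on average) and S100a8 (13.65 and 13.36). The call of S100a8 (-0.30) was lost with the replicate block (limma adjusted p = 0.082). It was also lost without any 1 array but EGFP-positive replicate 3 (0.054 to 0.081). Monocyte and macrophage markers divided, with 6 of 10 lower, 5 of them at least 2-fold, and Lyz2 (0.40) and Cd68 (0.80) higher (median -1.07). The falls with the smallest p were Adgre1 (-2.07), F13a1 (-2.68) and Csf1r (-1.37). The summed level of this list moved little (13.20 to 13.22 against 12.96 to 13.01). That sum is weighted to the brightest genes, Mrc1 (11.52 and 11.30 on average) and Cd68 (10.94 and 11.74). Erythroid markers rose in 6 of 8 cases and fell in 1, Alas2, and their summed level rose from 11.67 to 11.74 up to 12.66 to 12.68. Megakaryocyte markers rose in 4 of 8 (10.75 to 10.84 against 11.86 to 12.02), while Treml1 fell and Gp6 was under the ceiling on all arrays. Of the 7 genes listed as immature progenitor markers, 5 fell, namely Kit, Cd34, Flt3, Myb and Cd48 (sums 13.28 to 13.33 against 12.39 to 12.42). The progenitor sum is weighted to Myb, the brightest (12.88 and 12.07 on average). Slamf1, on the same list, rose by 2.59, so the list did not move in 1 direction.

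Dendritic markers were lower in 4 of 10 and higher in 1, Bst2, while their summed level was slightly higher (13.83 to 13.86 against 13.91 to 13.94), and Xcr1 and Cd209a were under the ceiling on all arrays. The dendritic sum is weighted to Cd74, the brightest (12.84 and 13.03 on average), which did not pass. B lymphoid markers fell in 2 of 9, Dntt and Il7r, and rose in 1, Cd79b, with Pax5 under the ceiling. The share that fell, 22.2%, was near the 17.2% of all genes. Their summed level (10.28 to 10.44 against 8.70 to 8.96) is weighted to Dntt and Il7r, the brightest of these markers without EGFP (8.82 and 9.24 on average). T and NK markers fell in 4 of 10 (Cd3e, Klrk1, Nkg7 and Gzma), with Cd3g and Ncr1 under the ceiling. Their summed level (11.70 to 11.76 against 9.19 to 9.30) is weighted to Nkg7, the brightest without EGFP (11.43 and 7.84 on average). Klrk1 read under the ceiling on 4 arrays. Its call was lost with the replicate block and without any 1 array but EGFP-negative replicate 2 (limma adjusted p from 0.055 to 0.098). The part of these lineage differences in the falls of the receptors was not tested.

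**Figure D5:**
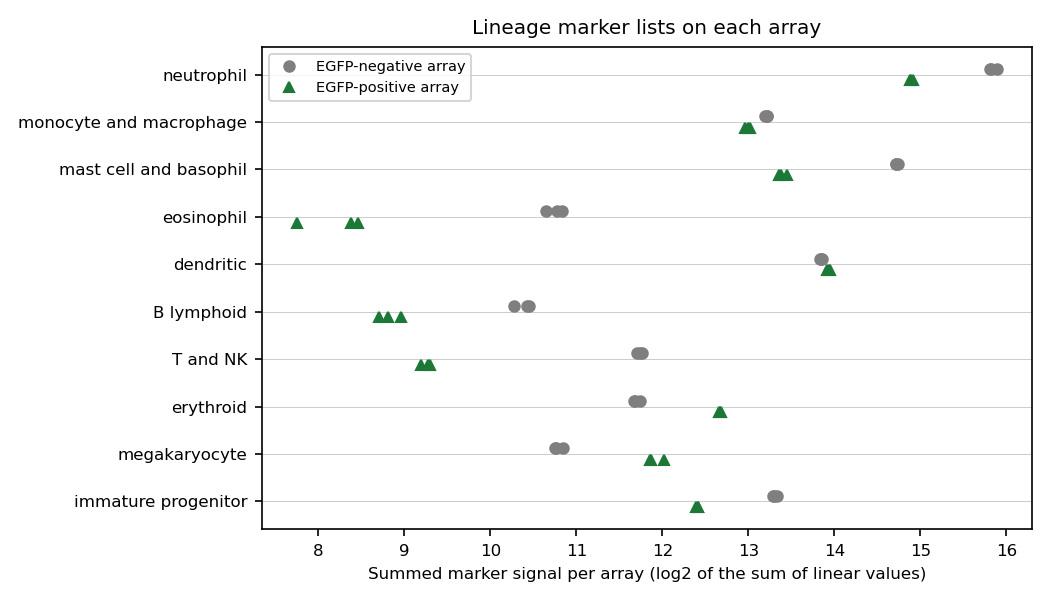
Summed signal of the markers of each lineage (log2 of the sum of linear values; horizontal axis) on each array, with grey circles for the 3 EGFP-negative and green triangles for the 3 EGFP-positive arrays. Neutrophil, mast cell and eosinophil sums lie lower in EGFP-positive arrays, erythroid and megakaryocyte sums lie higher, and monocyte and dendritic sums differ little.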

How the data were processed

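Each of 6 samples was measured on 1 Affymetrix expression array. The authors deposited log2 values, 1 per probe set. RMA produced them, per the submitters' processing notes (background correction, quantile normalization and summary over probes; version not given in the sources used here). Per the labels' protocols, RNA was amplified linearly by a 3' in vitro transcription kit and biotin-labelled. Scanner files were not used here.

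Of 45037 non-control probe sets, the platform annotation gave 1 gene for 34945, several for 932 and none for 9160. The brightest single-gene probe set stood for each gene. A linear model without covariates was fitted by limma 3.58.1 (R 4.3.3; lmFit, eBayes) over the 18192 genes, two-sided, with Benjamini-Hochberg adjustment. Arrays carry no read depth, and their number, 3 per group, limits the precision. Between 99 and 300 probe sets had identical values in a pair of arrays, so no array copied another. The fit was also run on simulated data with far fewer changed genes than were called here. No result is drawn from that run.

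The genes, roles and lists were chosen with earlier results of these data known. Array values are given for the 12 largest called falls, all called rises, the adaptors, both effectors and Sirpa, and list genes by smallest p. Ptpn11, Cd47, Cd200, the sialic acid genes other than St6gal1, St3gal3, St3gal5 and Neu3, and genes spelling out small counts were named after their values were seen. Alternatives were a replicate block, 2 other scalings, only genes above the ceiling, 2 other choices of probe set, eBayes trend and robust options, and leaving out each array. Same-numbered arrays showed little shared deviation (correlations 0.012, -0.011 and 0.0023). With so few arrays, these values cannot tell whether same-numbered arrays share a culture, animal or day. The main fit left the replicate numbers out, and the replicate block took them into account.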

Additional observations from a re-analysis of the deposited data

How the results depend on the processing

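Over 13 alternatives, 31 of the 43 genes kept their call throughout, and of 552 values 514 kept their side of the threshold, 31 lost a call, 7 gained one and 0 changed direction in a called gene. The count of family genes that fell was 18 to 22 in all alternatives, and 18 to 21 with 1 array left out. The count that rose, 5 as reported, was 3 to 4 with 1 array left out (3 without EGFP-negative replicate 2 or 3) and 3 when each gene's probe sets were averaged. With the replicate block, 18 fell and 3 rose: Cd300a (adjusted p = 0.077), Pirb (0.066), Mrgpra4 (0.064), Fcgr1 (0.052) and Fcgrt (0.087) were lost. Genes that gained a call were Cd200r4 without EGFP-positive replicate 2 (0.028), Cd22 without EGFP-positive replicate 1 (0.023), Treml4 without EGFP-positive replicate 3 (0.011) and Ceacam1 with the mean of its probe sets (difference -0.60, 0.029), besides Fcer1g and Syk as given above. Pirb (0.057) and Fcgrt (0.054) were also lost where the most variable probe set stood for each gene. Each has 1 probe set, so its own values and difference were unchanged there. Mrgpra4 (0.054) was lost with trend and robust options. Counts within a role move with these genes: without Fcgr1 no activating receptor rose, and where Fcer1g and Syk passed, 2 adaptors and 1 effector fell. Counts for the signalling and ligand lists stayed within 1.5 times, as did those for marker lists, apart from the single dendritic marker that rose, which became 2 in 2 alternatives. Over all genes the calls numbered 4900 with the block, 6372 of 13122 genes above the ceiling, 6839 with trend and robust options and 4432 to 5664 with 1 array left out. Signals near the bacterial ceiling limit what can be said of Fcgr1, Siglec1, Cd22, Siglecg, Treml4 and the Mrgpr genes.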

Other observations

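Related immune receptors outside the symbol rule, a list of 23 chosen after the data were seen, were measured in 19 cases, of which 7 were lower, 2 were higher and 10 did not pass. Of all genes, 17.2% were lower and 16.0% higher. Fcer2a, the low-affinity IgE receptor CD23, read 4.31, 3.99 and 4.05 on the EGFP-negative arrays and 7.87, 7.77 and 7.74 on the EGFP-positive arrays, a rise of 3.68 (SE 0.11, limma adjusted p = 1.9e-05) in the opposite direction to Fcgr3, Fcgr4 and Fcgr2b. Sirpb1a, which encodes a DAP12-coupled relative of SIRPA, rose by 1.91 (from 5.61, 5.60 and 5.37 to 7.37, 7.75 and 7.19), where Sirpa fell. Close copies of Sirpb1a exist in the mouse, so its signal is uncertain as to the gene. No array overlapped between groups for either gene.

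Falls were measured for Havcr2, the checkpoint receptor TIM-3 (-3.19, from 9.80, 9.95 and 9.92 to 6.23, 6.97 and 6.91), Pdcd1, which encodes PD-1 (-1.95, with 1 EGFP-positive array under the ceiling), Milr1, the mast cell receptor allergin-1 (-1.88), Cd200r3 (-1.29), Cd72 (-0.98), Pecam1 (-0.87) and Ctla4 (-0.66). The call of Ctla4 was lost without any 1 of 4 arrays (adjusted p from 0.073 to 0.095; EGFP-negative replicate 1, 2 or 3, EGFP-positive replicate 1) and with the replicate block (0.054), and that of Cd200r3 with its most variable probe set (0.064). Both means lay under the bacterial ceiling for 5 of the 19 genes.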
